A study of Homo sapiens with 12 samples.

Results

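Complement is a cascade of plasma and cell-surface proteins that tags and lyses foreign or damaged cells. C1R and C1S are the proteases that start its classical pathway, C3 is the central protein that all pathways cleave, and CFB joins cleaved C3 to form the alternative pathway's C3-cutting enzyme. Host cells hold the cascade in check with SERPING1, which blocks C1R and C1S, with CFI, which inactivates cleaved C3, and with the surface proteins CD46, CD55 and CD59. Liver makes most plasma complement, and kidney tubule cells are known to make C3 and other components locally.

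The genes described here are these 9 complement components and regulators, C3, CFB, CFI, C1R, C1S, CD46, CD55, CD59 and SERPING1, among 60617 gene IDs in each count table. They were taken by name from a list that was chosen with earlier results of these data known. C3 was chosen by its measured values in earlier results on these libraries, in a comparison that is not recorded, so its values are given as a description with no test, and tests cover the other 8. Of the 9, C3 and 6 others passed the filter on low counts (CFI, C1R, C1S, CD46, CD55 and CD59). CFB fell below it and SERPING1 had no counts.

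RNA was sequenced in 12 libraries of 769-P cells, an established line from a human kidney cancer of the clear cell type, treated with small interfering RNA (siRNA). The 4 groups of 3 are siDRAIC, named for the long non-coding RNA DRAIC, with its own control siDRAIC-NC, and sihnRNPA2B1, named for the RNA-binding protein hnRNPA2B1, with its own control sihnRNPA2B1-NC. The labels give no siRNA sequence, dose or time, and do not say what NC stands for or whether replicates were separate cultures, so the p-values reflect only the scatter among libraries, which may be technical. In bulk RNA, fewer cells of a type and less RNA per cell cannot be told apart. The series' title ties DRAIC to hnRNPA2B1 and IGF1R; no label names a question about complement.

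Library totals ran from 30798303 to 42760528 counts, and levels are in CPM (counts scaled to a common library total). HNRNPA2B1 stood at 291 ± 16.7 CPM in sihnRNPA2B1 and 419.6 ± 21.0 CPM in sihnRNPA2B1-NC (SD, n = 3 each; edgeR adjusted p = 2.16e-09). DRAIC summed to 9 counts in siDRAIC and 5 in siDRAIC-NC, a ratio scaled by library totals of 1.76 (exact 95% interval 0.531 to 6.70). These few counts showed no knockdown of DRAIC, and the interval covers counting error only. The text therefore speaks of the libraries labelled siDRAIC. Of 9 renal carcinoma and tubule markers, 6 were above 1 CPM in every group, among them PAX8, a transcription factor of renal epithelium, at 437 to 500.3 CPM, while CA9, a common marker of clear cell carcinoma, had 0 or 1 counts per library. The 7 immune, 5 hepatocyte and 5 endothelial markers summed to at most 1.53, 0.725 and 0.876 CPM in any library. Of 5 fibroblast markers, COL1A1 and PDGFRB carried nearly all of the sum, which was 10.5 to 18.2 CPM in the libraries labelled siDRAIC and 2.55 to 6.59 CPM in siDRAIC-NC, and 3.56 to 4.12 CPM in sihnRNPA2B1 and 2.47 to 3.61 CPM in sihnRNPA2B1-NC.

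Among the members, CD46 and CD59 had the highest levels per exon length in the DRAIC experiment and, with CD55, in the hnRNPA2B1 experiment, while CFI, C1R, C1S and CFB were low throughout. Per kilobase of exon (GENCODE 29 exon lengths), mean levels across the 4 groups were 21.3 to 25.5 CPM for CD46, 11.8 to 15.2 for CD59, 1.00 to 14.0 for CD55 and 3.86 to 9.63 for C3. CFI, C1R, C1S and CFB had 0.0130 to 0.292 CPM per kilobase. SERPING1 (chromosome 11, 57597387 to 57614853, plus strand, GRCh38) had 0 counts in all 12 libraries, where 3 counts in 448233757 would be 0.00669 CPM. Reads of C1R and C1RL, whose exons overlap on the same strand, may be split or lost in counting, as may those of CFB and its neighbour C2, of CFI and AC126283.2, of C1S and EMG1, and of CD59 and AL049629.2.

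C3 (ENSG00000125730; chromosome 19, 6677704 to 6730562, minus strand) stood lower in the libraries labelled siDRAIC and in sihnRNPA2B1 than in their own controls. The libraries labelled siDRAIC held 37.6, 31.8 and 44.5 CPM of C3, against 65.0, 76.0 and 99.7 CPM in siDRAIC-NC. Every library labelled siDRAIC was below every control library, as for 5.86% of all tested genes, and the ratio of the means was 0.473. The sihnRNPA2B1 libraries held 32.5, 32.0 and 31.9 CPM, against 48.0, 41.9 and 49.9 CPM in sihnRNPA2B1-NC. These groups did not overlap either, as for the 18.3% of all tested genes that were lower without overlap, and the ratio of the means was 0.689. Since C3 was picked on these libraries, nothing is read from these shares.

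The fitted log2 fold change of C3 was -1.12 for siDRAIC over siDRAIC-NC and -0.57 for sihnRNPA2B1 over sihnRNPA2B1-NC. The 2 control groups themselves were apart, at 80.2 ± 17.8 CPM in siDRAIC-NC and 46.6 ± 4.18 CPM in sihnRNPA2B1-NC (SD, n = 3 each). The libraries labelled siDRAIC and the sihnRNPA2B1 libraries lay near each other, at 37.9 ± 6.36 and 32.1 ± 0.321 CPM. In order, siDRAIC-NC was highest, then sihnRNPA2B1-NC, the libraries labelled siDRAIC and sihnRNPA2B1. The ranges of sihnRNPA2B1-NC and the libraries labelled siDRAIC overlapped, as did those of the libraries labelled siDRAIC and sihnRNPA2B1.

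Of 17091 genes tested over the 12 libraries, the 5 whose centred log2 CPM lay nearest to those of C3 were PLEKHF1, CCND1, GPAT3, TSPAN18 and L1CAM, with root mean square differences of 0.161 to 0.219 log2 units. CCND1, which encodes cyclin D1, had means of 577 CPM in the libraries labelled siDRAIC and 1102 CPM in siDRAIC-NC, and of 592 CPM in sihnRNPA2B1 and 825 CPM in sihnRNPA2B1-NC. L1CAM, a cell adhesion molecule, had means of 35.7 and 66.4 CPM in the same 2 groups of the first experiment and of 37.5 and 42.2 CPM in those of the second. These genes were ranked on the same libraries as C3, so their likeness is a description.

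**Figure D1:**
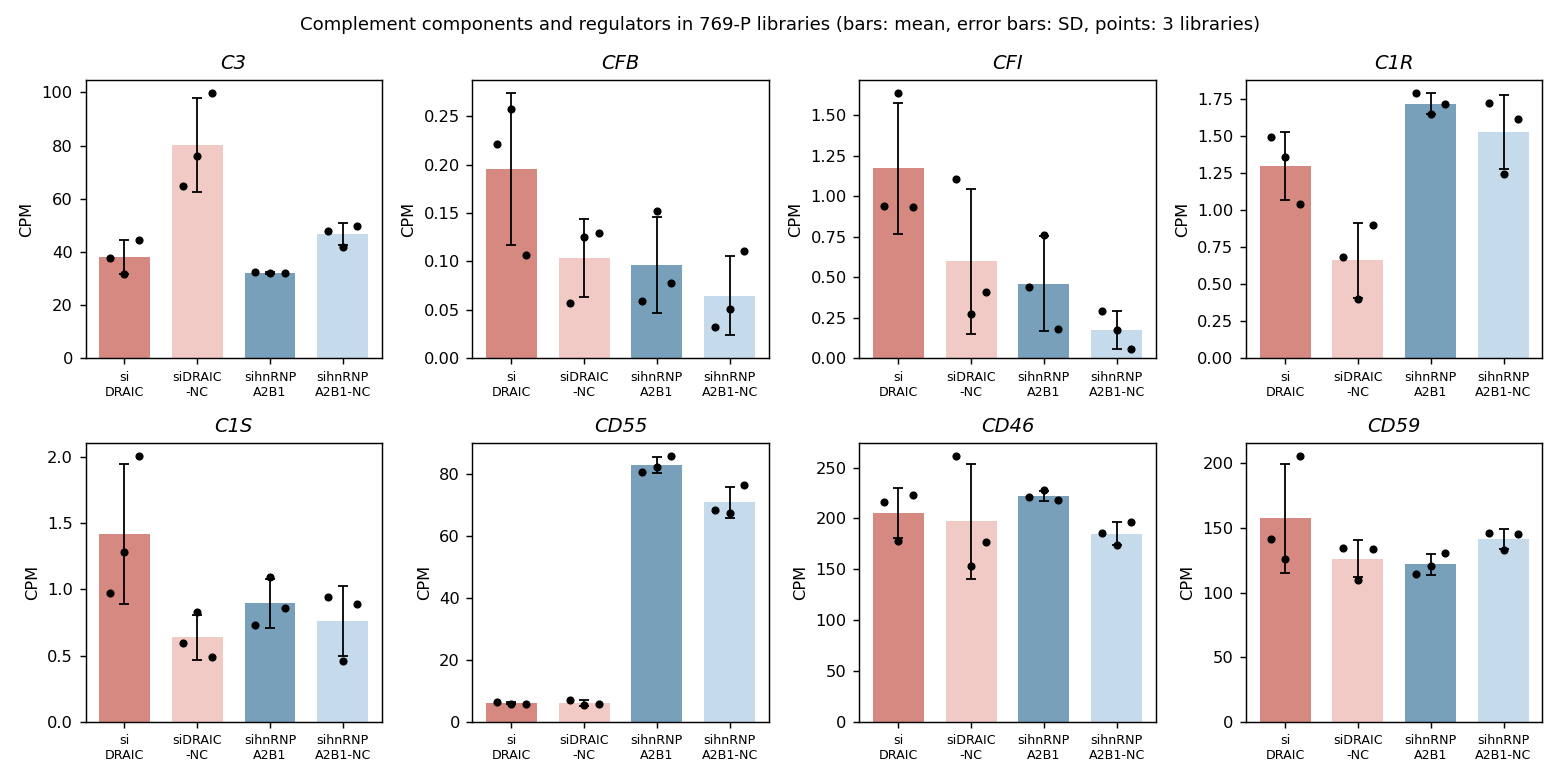
CPM of 8 genes in the 4 groups, 1 panel per gene with its own axis from 0; bars are means, error bars SD and points the 3 libraries of a group. C3 is lower in the libraries labelled siDRAIC and in sihnRNPA2B1 than in their own controls. CD55 lies at 5.29 to 7.04 CPM in the 6 libraries of the DRAIC experiment and at 67.5 to 85.8 CPM in the 6 of the hnRNPA2B1 experiment.

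CFB (ENSG00000243649; chromosome 6, 31945650 to 31952084, plus strand), the partner of C3 in the alternative pathway, was near the detection limit. The libraries labelled siDRAIC had 8, 11 and 4 counts of CFB, against 2, 5 and 5 counts in siDRAIC-NC. The sihnRNPA2B1 libraries had 2, 6 and 3 counts, against 1, 2 and 4 counts in sihnRNPA2B1-NC. The groups overlapped in each experiment. The ratios of summed counts, scaled by library totals, were 1.88 (exact 95% interval 0.897 to 4.14) and 1.49 (0.528 to 4.53), whose intervals both include 1 and cover counting error only.

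The classical pathway proteases C1R (ENSG00000159403; chromosome 12, 7080199 to 7092607, minus strand) and C1S (ENSG00000182326; chromosome 12, 6988259 to 7071032, plus strand) are neighbours on chromosome 12. C1R had 1.496, 1.36 and 1.04 CPM in the libraries labelled siDRAIC, against 0.681, 0.401 and 0.902 CPM in siDRAIC-NC. C1S had 0.970, 1.29 and 2.01 CPM in the libraries labelled siDRAIC, against 0.596, 0.827 and 0.490 CPM in siDRAIC-NC. For each gene the groups were separate but close, on 16 to 75 counts per library. Without regard to the test, 9.75% of all tested genes lay higher without overlap in the libraries labelled siDRAIC and 5.86% lower.

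Neither protease passed the test in that experiment. The log2 fold changes were 0.95 (SE 0.40, edgeR adjusted p = 0.397) for C1R and 1.12 (SE 0.40, edgeR adjusted p = 0.303) for C1S. Of the fibroblast markers, COL1A1 (9.88 and 2.63 CPM) and PDGFRB (4.24 and 1.28 CPM) had higher means in the libraries labelled siDRAIC than in siDRAIC-NC. For PDGFRB the groups overlapped, at 1.82 to 6.15 CPM in the libraries labelled siDRAIC and 0.696 to 1.99 CPM in siDRAIC-NC. COL1A2 and LUM had 0 counts in both groups, and DCN had 2 counts in each. A link of these genes to the values of C1R and C1S was not tested. In the hnRNPA2B1 experiment C1R averaged 1.72 ± 0.0699 CPM in sihnRNPA2B1 and 1.53 ± 0.249 CPM in sihnRNPA2B1-NC (SD, n = 3 each; edgeR adjusted p = 0.697), and C1S averaged 0.895 ± 0.182 and 0.763 ± 0.266 CPM (edgeR adjusted p = 0.693). Both differences were within the spread between replicates.

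CFI (ENSG00000205403; chromosome 4, 109740694 to 109802179, minus strand), the protease that inactivates cleaved C3, varied widely between libraries. It had 0.942, 1.64 and 0.936 CPM in the libraries labelled siDRAIC, against 1.11, 0.276 and 0.412 CPM in siDRAIC-NC. It had 0.440, 0.762 and 0.182 CPM in sihnRNPA2B1, against 0.292, 0.178 and 0.0556 CPM in sihnRNPA2B1-NC. In each experiment the groups overlapped.

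The log2 fold changes of CFI were 0.99 (SE 0.50, edgeR adjusted p = 0.515) and 1.38 (SE 0.60, edgeR adjusted p = 0.0821), and neither passed. Without siDRAIC-NC replicate 1 the first was 1.71, still short of the threshold. Without sihnRNPA2B1 replicate 3 the second was 1.76 and passed (edgeR adjusted p = 0.0371); over its alternatives the adjusted p ran from 0.0371 to 0.486.

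The surface regulators were the members that passed the test after hnRNPA2B1 siRNA. CD46 and CD55 rose and CD59 fell, all by small amounts. CD46 (ENSG00000117335; chromosome 1, 207752057 to 207795513, plus strand), a cofactor for CFI, had 221.2, 228 and 218 CPM in sihnRNPA2B1, against 186, 174 and 196 CPM in sihnRNPA2B1-NC. CD55 (ENSG00000196352; chromosome 1, 207321376 to 207386804, plus strand), which speeds the decay of C3-cutting enzymes, had 80.7, 82.3 and 85.8 CPM in sihnRNPA2B1, against 68.6, 67.5 and 76.7 CPM in sihnRNPA2B1-NC. For both genes every sihnRNPA2B1 library was above every control library.

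CD59 (ENSG00000085063; chromosome 11, 33703010 to 33736491, minus strand), which blocks the final membrane pore, had 114, 121 and 131 CPM in sihnRNPA2B1, against 146, 133 and 145 CPM in sihnRNPA2B1-NC. The groups did not overlap. Among all tested genes, 23.7% lay higher without overlap in sihnRNPA2B1 and 18.3% lower. The log2 fold changes were 0.23 for CD46 (SE 0.05, edgeR adjusted p = 0.00118), 0.19 for CD55 (SE 0.06, edgeR adjusted p = 0.0171) and -0.25 for CD59 (SE 0.06, edgeR adjusted p = 0.00175).

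Thus 3 of the 6 tested members were called in that experiment, 2 up and 1 down, where 30.4% of all 15710 tested genes were called, 15.1% up and 15.4% down. The members' median log2 fold change was 0.21, against 0.01 over all tested genes. The call of CD55 was lost without sihnRNPA2B1 replicate 2 (edgeR adjusted p = 0.0540), sihnRNPA2B1 replicate 3 (0.0949) or sihnRNPA2B1-NC replicate 1 (0.115). All 3 calls were lost when the 12 libraries shared 1 estimate of the spread (edgeR adjusted p of 0.432 to 0.456; 0 below an unadjusted p of 0.05), with the log2 fold changes at 0.23, 0.19 and -0.25.

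In the DRAIC experiment none of the 3 surface regulators passed the test. CD46 had 216, 177.5 and 223 CPM in the libraries labelled siDRAIC, against 261, 154 and 177 CPM in siDRAIC-NC. CD55 had 6.29, 5.66 and 5.81 CPM in the libraries labelled siDRAIC, against 7.04, 5.29 and 5.77 CPM in siDRAIC-NC. CD59 had 141, 126 and 205 CPM in the libraries labelled siDRAIC, against 135, 110 and 134 CPM in siDRAIC-NC. For all 3 genes the groups overlapped, and siDRAIC-NC replicate 1 was the highest of all 6 libraries for CD46 and CD55.

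The log2 fold changes were 0.04 for CD46 (SE 0.18), -0.05 for CD55 (SE 0.23) and 0.30 for CD59 (SE 0.19), with edgeR adjusted p-values of 0.965, 0.971 and 0.622. The SEs were larger than in the hnRNPA2B1 experiment, and for CD46 and CD55 the changes seen there lie within 2 SEs of these estimates. Of the 6 tested members 0 were called by edgeR, DESeq2 or limma-voom, and 2 (C1R and C1S) were below an unadjusted p of 0.05 in edgeR; 0.713% of all 15986 tested genes were called. The members' median log2 fold change was 0.62, against -0.00 over all tested genes. These fits had no block on replicate. With the replicate number as a block, 0 of the 6 were called by edgeR, against 8.78% of all tested genes. Of the 6, 3 were then below an unadjusted p of 0.05.

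The effects of the 2 siRNAs were compared directly on the 12 libraries, by subtracting the sihnRNPA2B1 log2 fold change from that of siDRAIC. Of the 6 tested members 0 differed by edgeR, DESeq2 or limma-voom, and 1, CD59, was below an unadjusted p of 0.05 in edgeR; 0.211% of all tested genes were called. CD59 differed by 0.52 (SE 0.21, edgeR adjusted p = 0.466), C1R by 0.78 (SE 0.41) and C1S by 0.87 (SE 0.53). A difference between the siRNAs in any of these genes was therefore not shown.

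**Figure D2:**
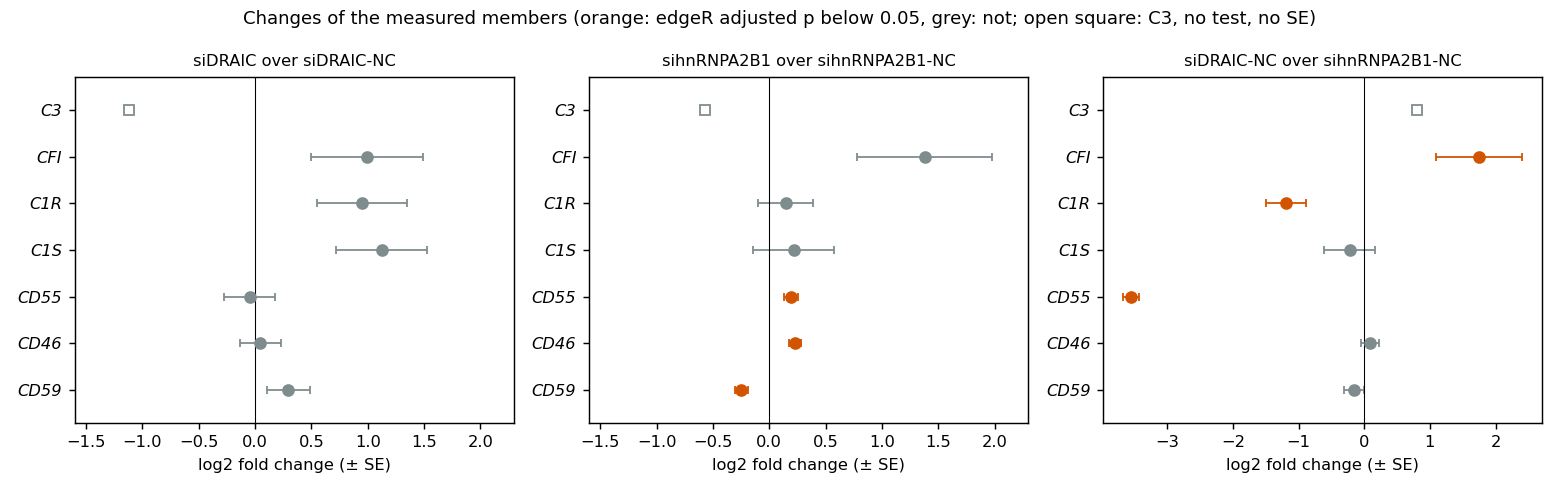
Log2 fold changes (x axis) of the 7 genes that passed the filter on low counts, with SE for the 6 tested, in the libraries labelled siDRAIC over siDRAIC-NC, in sihnRNPA2B1 over sihnRNPA2B1-NC, and in siDRAIC-NC over sihnRNPA2B1-NC, whose axis is wider. Orange marks an edgeR adjusted p below 0.05, grey marks genes not called, and the open square is C3, which was not tested and has no error bar; CD55 stands at -3.55 between the control groups.

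CD55 differed far more between the 2 experiments than within either. Its mean was 6.03 ± 0.906 CPM in siDRAIC-NC and 70.9 ± 5.04 CPM in sihnRNPA2B1-NC (SD, n = 3 each), an 11.8-fold higher level in sihnRNPA2B1-NC. On the log2 scale the fitted fold was -3.55 (SE 0.12, edgeR adjusted p = 7.62e-11), and it lay between -3.62 and -3.49 with any single library left out. Only 1.41% of all 17091 tested genes differed by as much. CD46 lies in the same gene cluster on chromosome 1 and did not follow. It averaged 197 ± 56.5 CPM in siDRAIC-NC and 185 ± 11.3 CPM in sihnRNPA2B1-NC (log2 fold change 0.09, SE 0.14, edgeR adjusted p = 0.609).

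C1R was also lower in siDRAIC-NC than in sihnRNPA2B1-NC, at 0.661 ± 0.251 and 1.53 ± 0.249 CPM (SD, n = 3 each; log2 fold change -1.19, SE 0.30, edgeR adjusted p = 0.00413), without overlap, as for 28.6% of all tested genes (29.2% were higher without overlap). CFI was higher, at 0.598 ± 0.446 and 0.175 ± 0.118 CPM, with overlapping groups (log2 fold change 1.75, SE 0.66, edgeR adjusted p = 0.0376). The CFI call was lost without siDRAIC-NC replicate 1 (edgeR adjusted p = 0.211) and without sihnRNPA2B1-NC replicates 2 (0.0811) or 3 (0.141), with limma-voom (0.0706) and in a fit of the 6 control libraries alone (0.0564), which was added after seeing the data. CD59 (edgeR adjusted p = 0.404) and C1S (0.654) were not called. Thus 3 of 6 tested members were called between the control groups, 1 up and 2 down, where 51.6% of all tested genes were, 26.6% up and 25% down. Which reagent, day or cell stock each control group had is not given, so those and the group cannot be told apart.

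Because CD55 and CD46 share a gene cluster and their RNA separated between the experiments, the 250 bases before the RefSeq start of each are shown, 5′ to 3′ on the plus strand of GRCh38.p14, at chr1:207321428-207321677 for CD55 and chr1:207751788-207752037 for CD46. Capitals mark the letters of the GC box, a motif bound by SP1-family factors, searched as GGGCGG and its reverse complement CCGCCC.
CD55: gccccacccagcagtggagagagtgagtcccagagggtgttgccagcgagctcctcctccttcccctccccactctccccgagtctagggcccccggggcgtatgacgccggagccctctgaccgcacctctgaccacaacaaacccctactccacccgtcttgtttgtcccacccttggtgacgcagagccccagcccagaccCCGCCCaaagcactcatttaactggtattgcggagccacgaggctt
CD46: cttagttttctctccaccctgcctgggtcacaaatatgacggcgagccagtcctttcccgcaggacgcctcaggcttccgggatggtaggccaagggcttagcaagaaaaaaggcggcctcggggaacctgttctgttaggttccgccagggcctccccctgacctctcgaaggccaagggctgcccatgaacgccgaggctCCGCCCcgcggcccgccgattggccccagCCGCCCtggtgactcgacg
The CD55 stretch held 1 match and 12 CG dinucleotides, and the CD46 stretch held 2 matches and 19 CG dinucleotides. By the GENCODE coordinates given for the members, CD55 starts at 207321376, so its whole stretch lies inside the gene. The CD46 stretch ends before the GENCODE start of CD46 at 207752057. The stretches are therefore not placed alike by those coordinates, and nothing is read from a comparison of their matches. At least 1 match stood in 42.3% of 27305 promoters of the same length, 1 per gene, so the letters are common, and a match is a description and not a binding site.

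Most of the other complement genes had little or no RNA. Of 49 other complement genes, 17 had 0 counts in all 12 libraries, among them C1QA, C1QB and C1QC, the chains of the recognition protein that works with C1R and C1S, and C7, C8A and C8B of the membrane pore. A mean of at least 1 CPM in some group was reached by 13, and of at least 10 CPM by 3: C1RL, a C1R-like protease, ITGB2, the beta chain of the leukocyte complement receptors, and C1QBP, a mostly mitochondrial protein that binds C1q. This list was written with earlier results of these data known.

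In the libraries labelled siDRAIC, 1 of 15 tested genes of that list was called, against 0.582% of all tested genes called up, namely SUSD4, a membrane protein with complement control repeats. SUSD4 had a mean of 1.79 ± 0.187 CPM in the libraries labelled siDRAIC and 0.469 ± 0.0962 CPM in siDRAIC-NC (SD, n = 3 each; log2 fold change 1.91, SE 0.35, edgeR adjusted p = 0.0339). The groups did not overlap, and 9.75% of all tested genes lay higher without overlap in the libraries labelled siDRAIC. The call was lost without siDRAIC replicate 2 (edgeR adjusted p = 0.137) or 3 (0.105) and without siDRAIC-NC replicate 2 (0.183) or 3 (0.170). With the replicate number as a block, 4 of the 15 were called, against 8.78% of all tested genes (5.2% up and 3.58% down): SUSD4, C1RL (0.60) and COLEC12 (1.40) up and C1QBP (-0.57) down, in log2 fold changes. The list's median was 0.29 without the block, and -0.00 over all tested genes.

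After hnRNPA2B1 siRNA, 8 of 15 tested genes of the list were called, 6 up and 2 down, against 30.4% of all tested genes. C5AR1, the receptor of the fragment C5a, averaged 2.10 ± 0.205 CPM in sihnRNPA2B1 and 1.13 ± 0.300 CPM in sihnRNPA2B1-NC (SD, n = 3 each; log2 fold change 0.86, edgeR adjusted p = 0.00970). SUSD4 (1.40) and C1RL (0.30) also rose. C5 (0.57) and MASP2 (0.96), a protease of the lectin pathway, rose too and are named after their values were seen. ITGB2 fell to 4.31 ± 0.707 CPM in sihnRNPA2B1, against 11.2 ± 1.29 CPM in sihnRNPA2B1-NC (log2 fold change -1.40, SE 0.14, edgeR adjusted p = 4.69e-09), and C1QBP fell by 0.18 on the log2 scale.

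In the fit of all 12 libraries 1 of the 15 was called, ITGB2, and SUSD4 (edgeR adjusted p = 0.0722), C5AR1 (0.297), C1RL (0.401) and C1QBP (0.606) were not. The list's median was 0.09, against 0.01 over all tested genes. Without sihnRNPA2B1 replicate 1 the list had 3 calls and without sihnRNPA2B1-NC replicate 1 it had 4, with SUSD4 lost in both (edgeR adjusted p of 0.134 and 0.0759). SUSD4 was also lost without sihnRNPA2B1-NC replicate 3 (0.0562), C1RL without sihnRNPA2B1 replicate 1 (0.0754) and C5AR1 without sihnRNPA2B1 replicate 2 (0.0542). C1QBP was lost without sihnRNPA2B1 replicate 1 (0.09996), sihnRNPA2B1-NC replicate 1 (0.0545) or sihnRNPA2B1-NC replicate 2 (0.0748).

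The test of the difference between the siRNAs called 0 of 16 genes of the list with edgeR, with 4 below an unadjusted p of 0.05, and 1, ITGB2, with DESeq2. ITGB2 had 7, 23 and 16 counts in the libraries labelled siDRAIC and 8, 9 and 8 counts in siDRAIC-NC, too few to be tested there. Its difference of effects was 2.17 (SE 0.43, edgeR adjusted p = 0.0545; 0.0180 when the fit blocked on replicate, which called 1.51% of all tested genes). ITGB2 was also lower in siDRAIC-NC than in sihnRNPA2B1-NC (log2 fold change -5.63, edgeR adjusted p = 3.01e-09). In that comparison of controls 7 of 16 were called, against 51.6% of all tested genes: ITGAX (2.18), ITGAM (1.19), C1QBP (0.84) and CFD (1.17) were higher and ITGB2, C5AR1 (-2.12) and C4A (-1.98) lower in siDRAIC-NC, in log2 fold changes. ITGAM is named after its values were seen, and C4A shares near-identical sequence with C4B.

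**Figure D3:**
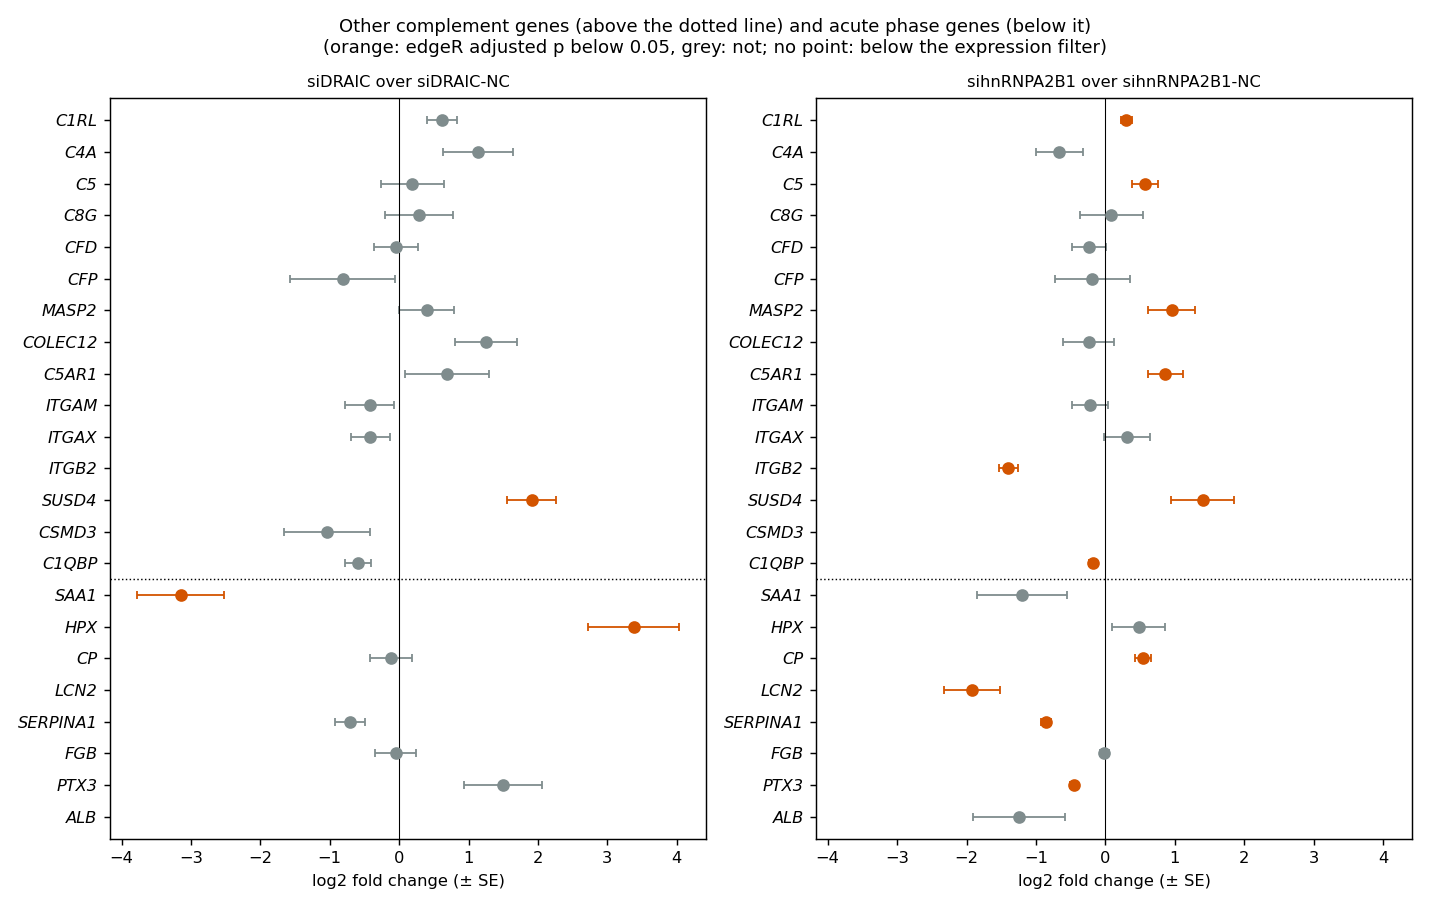
Log2 fold changes (x axis) with SE of the other complement genes (above the dotted line) and acute phase genes (below it), in the libraries labelled siDRAIC over siDRAIC-NC (left) and in sihnRNPA2B1 over sihnRNPA2B1-NC (right). Orange marks an edgeR adjusted p below 0.05, grey marks genes not called, and a row without a point was below the expression filter in that experiment; SUSD4 is called in both and lies at 1.91 and 1.40.

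C3 belongs to the acute phase proteins, plasma proteins whose synthesis changes in inflammation, so 28 others of that class were described. In the libraries labelled siDRAIC, 2 of 6 tested were called, 1 up and 1 down, against 0.582% and 0.131% of all tested genes. HPX, which binds haem, averaged 0.582 ± 0.208 CPM in the libraries labelled siDRAIC and 0.0526 ± 0.0250 CPM in siDRAIC-NC (SD, n = 3 each; log2 fold change 3.38, SE 0.65, edgeR adjusted p = 0.0405). SAA1, an apolipoprotein of the acute phase, fell to 0.0882 ± 0.0359 CPM, against 0.768 ± 0.364 CPM in siDRAIC-NC (log2 fold change -3.15, SE 0.63, edgeR adjusted p = 0.0462). HPX rests on 69 counts in the libraries labelled siDRAIC and 6 in siDRAIC-NC, and SAA1 on 10 and 89. Each call was lost without any single library other than siDRAIC-NC replicate 1 (edgeR adjusted p of 0.0559 to 0.262), and that of SAA1 also with RLE factors (0.0501) and limma-voom (0.0846).

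SERPINA1, the elastase inhibitor alpha-1-antitrypsin, had 184.6 ± 14.3 CPM in the libraries labelled siDRAIC and 293 ± 78.3 CPM in siDRAIC-NC, a log2 fold change of -0.70 (SE 0.22) that did not pass (edgeR adjusted p = 0.203) except when blocked on replicate (0.000244), without the low-count filter (0.00637), in a fit of 12 libraries (0.0282) and without siDRAIC-NC replicate 1 (0.00381). The block called 4 of the 6, HPX and PTX3 up and SAA1 and SERPINA1 down, against 8.78% of all tested genes (5.2% up and 3.58% down). The list's median was -0.08, against -0.00 over all tested genes.

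After hnRNPA2B1 siRNA, 4 of 8 tested acute phase genes were called, 1 up and 3 down, against 30.4% of all tested genes, and their median was -0.65. SERPINA1 fell to 30.5 ± 1.29 CPM in sihnRNPA2B1, against 53.9 ± 2.15 CPM in sihnRNPA2B1-NC (SD, n = 3 each; log2 fold change -0.85, SE 0.07, edgeR adjusted p = 1.4e-10). PTX3, a secreted pattern recognition protein that binds C1q, fell to 105 ± 4.31 CPM, against 140.5 ± 3.31 CPM (log2 fold change -0.45, edgeR adjusted p = 3.58e-07). LCN2, which binds bacterial iron carriers, fell by 1.92 on the log2 scale (edgeR adjusted p = 0.000563), and CP, which encodes the ferroxidase ceruloplasmin, rose by 0.55 (edgeR adjusted p = 0.00046). In the fit of all 12 libraries SERPINA1 was called, and PTX3 (edgeR adjusted p = 0.682), LCN2 (0.104) and CP (0.327) were not. SAA1 had a log2 fold change of -1.20 and was not called in the main fit. It had 23 counts in sihnRNPA2B1 and 49 in sihnRNPA2B1-NC, with overlapping groups. SAA1 passed only with limma-voom (limma-voom adjusted p = 0.0211), with the replicate block (edgeR adjusted p = 0.0451) and without sihnRNPA2B1 replicate 3 (0.00849).

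PTX3 lay the other way in the DRAIC experiment, with 19.1, 22.6 and 69.1 CPM in the libraries labelled siDRAIC, against 8.77, 11.7 and 17.6 CPM in siDRAIC-NC (edgeR adjusted p = 0.414; 4.02e-11 when blocked on replicate). The groups were separate but close, and 9.75% of all tested genes lay higher without overlap in the libraries labelled siDRAIC. The difference of the effects on PTX3 was 1.92 (SE 0.63), not called by edgeR (adjusted p = 0.361) but called with the block (adjusted p = 0.00105). Without siDRAIC replicate 3 the difference was 1.10, and the log2 fold change in the DRAIC experiment was 0.70, against 1.497 with all libraries. Of the 8 tested acute phase genes 0 differed between the siRNAs by edgeR, DESeq2 or limma-voom, with 2 below an unadjusted p of 0.05 in edgeR. Between the control groups 6 of 8 were called, against 51.6% of all tested genes. SERPINA1 and CP were higher and PTX3, HPX, ALB and LCN2 lower in siDRAIC-NC, with SERPINA1 at 293 ± 78.3 CPM in siDRAIC-NC and 53.9 ± 2.15 CPM in sihnRNPA2B1-NC. The ALB call was lost without siDRAIC-NC replicate 1 (edgeR adjusted p = 0.0614) or 3 (0.0750).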

How the data were processed

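The deposited tables hold raw counts of reads per Ensembl gene ID, 6 libraries each. The submitters' processing notes name hg38, STAR 2.7.10a, fastp 0.23.2, DESeq2 and StringTie. How reads were counted, with which annotation and strand setting, was not given in the sources used. Reads that overlapping genes share cannot be told apart. Symbols matched 60261 of 60617 IDs; coordinates and exon lengths are from GENCODE 29 (GRCh38), with 0 lines naming no gene. Library totals of 30798303 to 42760528 counts, 3 libraries per group and their spread set the precision.

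Counts were filtered with filterByExpr (minimum count 10), scaled by TMM and tested two-sided with edgeR 4.0.16 (robust quasi-likelihood, R 4.3.3), with Benjamini-Hochberg adjustment over all tested genes and a call at adjusted p below 0.05. Each experiment was fitted apart; the difference of effects and the control groups were tested on 12 libraries with 4 group means. Each SE is approximate, the size of the log2 fold change divided by the root of its F. The fits were run on counts simulated from the same kind of model without replicate effects. That run checks the code and not how well the model suits these libraries. Alternatives were RLE factors, DESeq2 1.42.0, limma-voom (limma 3.58.1), no filter, a filter of 1 CPM in 3 libraries, a block on replicate, 1 fit of 12 libraries, and leaving out each library.

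Same-numbered libraries deviated together in the DRAIC experiment (correlations of 0.489, 0.227 and 0.277, other pairs at most 0.103). The numbers may therefore mark pairs, which the labels do not state. The main test there had no block and so ignored any pairing, and the block on replicate was run as an alternative. Members and lists were chosen with earlier results of these data known. Named genes are the 9 members, the targeted genes, up to 6 called genes per other list and comparison by smallest p, and the 5 nearest to C3. The values of 1 gene of the other complement genes, which the list counts include, are not reported here.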

Additional observations from a re-analysis of the deposited data

How the results depend on the processing

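The log2 fold change of C3, a description, ran from -1.28 to -0.93 (siDRAIC), -0.63 to -0.53 (sihnRNPA2B1), -0.75 to -0.37 (difference) and 0.60 to 0.98 (controls) with each library left out. In the DRAIC experiment 0 members were called under every alternative. Genes called overall numbered 114, and 392 with DESeq2, 73 with limma-voom, 520 unfiltered, 61 at 1 CPM, 1404 with the replicate block, 665 in 12 libraries and 9 to 1035 with a library left out. Other complement genes called there numbered 1, and 2 unfiltered and in 12 libraries, 4 with the block and 0 to 2 with a library left out; acute phase genes numbered 2, and 1 with RLE factors and limma-voom, 0 at 1 CPM, 4 with the block and 0 to 3 with a library left out. In the hnRNPA2B1 experiment 3 members were called, and 0 in the 12-library fit, where 1 gene of each list and 283 genes overall (against 4781) were called; with a library left out members numbered 2 to 3, other complement genes 3 to 8 and acute phase genes 4 to 5. There same-numbered libraries did not deviate together (correlations of -0.01, -0.02 and -0.05), and the block left 3 members called and 4414 genes overall. For the difference of effects, 36 genes were called, and 194 with DESeq2, 263 unfiltered, 258 with the replicate block and 9 to 349 with a library left out; other complement genes went to 1 with DESeq2, unfiltered and with the block and to 0 to 2 with a library left out, and acute phase genes to 1 unfiltered and with the block. Between controls, acute phase calls went to 3 at 1 CPM; the block could not be fitted there. A fit of the 6 control libraries alone, added after seeing the data, called 2 members, without CFI (edgeR adjusted p = 0.0564). CFB and SERPING1 are too rare for small changes to be detected at this depth, and neither was tested in the main fits. The cause of these shifts was not tested.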
